A study of Mus musculus with 2 samples.

Results

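The 9 genes described here act in the breakdown of lipoprotein triglyceride at the vessel wall and in the entry of its products and remnants into cells. They were taken by symbol (*Lpl*, *Gpihbp1*, *Angptl4*, *Lmf1*, *Cd36*, *Scarb1*, *Vldlr*, *Lrp1* and *Lrpap1*) from a table of 32285 genes, and each symbol matched 1 gene. Their RNA was followed across groups of lung cells of male, wild-type mice of the C57BL/6 strain, 3 months old. The lungs had been digested with pronase and collagenase, and living cells with the ultraviolet autofluorescence of stored retinoid were collected by flow cytometry after propidium iodide staining of dead cells. The cells were sequenced with the 10x Genomics 3' chemistry as 2 libraries of 1 condition, made on separate occasions, and no treated or control group is part of the series. The number of mice behind each library is not stated in the sources used here.

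Triglyceride travels in blood inside lipoproteins, and lipoprotein lipase frees its fatty acids at the luminal face of capillaries. The lipase is usually made by parenchymal or stromal cells, needs a maturation factor to fold, is carried across the endothelium and held there by a small anchoring protein, and is switched off by secreted angiopoietin-like proteins. Freed fatty acids enter cells with the help of membrane transporters, and the remnant particles, which also carry dietary retinyl ester, are taken up by scavenger receptors and by endocytic receptors of the low density lipoprotein receptor family.

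Unique molecular identifiers (UMIs, 1 for each captured RNA molecule) numbered 48762735 over the 9669 cell barcodes of library 1 and 93970185 over the 10050 of library 2. Barcodes under 200 genes or over 10% of mitochondrial RNA were dropped, so that 9634 and 9988 cells stayed, their median depth being 4480.0 and 7577.5 UMIs. The libraries had 23 barcodes in common, and leaving those cells out changed the direction or call of none of the 44 gene comparisons tested below. A cell was assigned to a class when it held at least 3 UMIs of that class's markers and fewer than 3 of every other class's. The markers were *Col1a2*, *Mfap4* and *Pdgfra* for stromal cells, *Cdh5*, *Pecam1* and *Egfl7* for endothelial cells, *Epcam*, *Cdh1* and *Lamp3* for epithelial cells, and *Ptprc*, *Laptm5* and *Cd52* for immune cells. Stromal cells with no *Dcn* UMI were called alveolar and those with at least 3 adventitial. Endothelial cells with more UMIs of *Car4* and *Ednrb* than of *Gpihbp1* and *Plvap* were called aerocytes, a capillary cell type that lies against the airspace. *Gpihbp1* was part of that last rule, so its levels in the endothelial subgroups are given as a description with no test.

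The stromal class held 7645 cells in library 1 and 7438 in library 2, of which 5805 and 5545 were alveolar, 1017 and 998 adventitial, and 823 and 895 had 1 or 2 *Dcn* UMIs and belonged to neither. There were 930 and 101 epithelial cells and 266 and 334 immune cells. The endothelial class held 56 cells in library 1 (11 aerocytes, 45 others), the fewest of the 4 classes there, and 360 in library 2 (66 and 294). Cells with markers of more than 1 class, which were left out of all groups, numbered 420 in library 1 and 1640 in library 2, or 4.36% and 16.4% of the kept cells. Levels (CPM) are the UMIs of a gene, summed over a group's cells in 1 library, divided by the group's UMIs in that library and multiplied by 1e6. Beside a level of 0 a floor is given, which is what 3 UMIs would make in that group. Intervals and floors cover counting error only. A level is compared between groups and not between genes, since gene length and capture were not measured.

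The group names were checked against marker lists. The 5 alveolar fibroblast markers (most abundant *Npnt*) summed to 5447 and 6158 CPM in alveolar stromal cells and to 2502 and 3829 CPM in adventitial cells. The 6 adventitial markers, *Dcn* of the rule included, summed to 6709 and 3770 CPM in adventitial and 2084 and 991 CPM in alveolar cells. Of the adventitial sums *Dcn* alone made 2978 and 1953 CPM, and by the rule it is 0 in alveolar cells. Of the 4 alveolar type 2 markers, which include *Lamp3* of the rule, all were detected in the epithelial class, which was made up almost wholly of alveolar type 2-like cells (925 of 930 and 93 of 101 cells). Aerocytes held 8190 and 5693 CPM of the 5 aerocyte markers (most abundant *Car4*, which with *Ednrb* was part of the rule) against 169 and 468 CPM in the other endothelial cells. In library 2, 3 endothelial cells carried lymphatic markers (most abundant *Ccl21a*), and in library 1 none did. The stromal class held 120 and 264 smooth muscle-like cells and 4 and 10 pericyte-like cells, which were not set apart. *Des* made 98.9% and 57.8% of the smooth muscle marker UMIs in those smooth muscle-like cells. The 5 general capillary markers, *Gpihbp1* and *Plvap* of the rule included, had 7041 and 5173 CPM in the other endothelial cells and 130 and 1610 CPM in aerocytes. For the lists that share genes with the rule, the match was in part fixed by the rule, and the endothelial groups of library 1 rest on few cells.

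**Figure D1:**
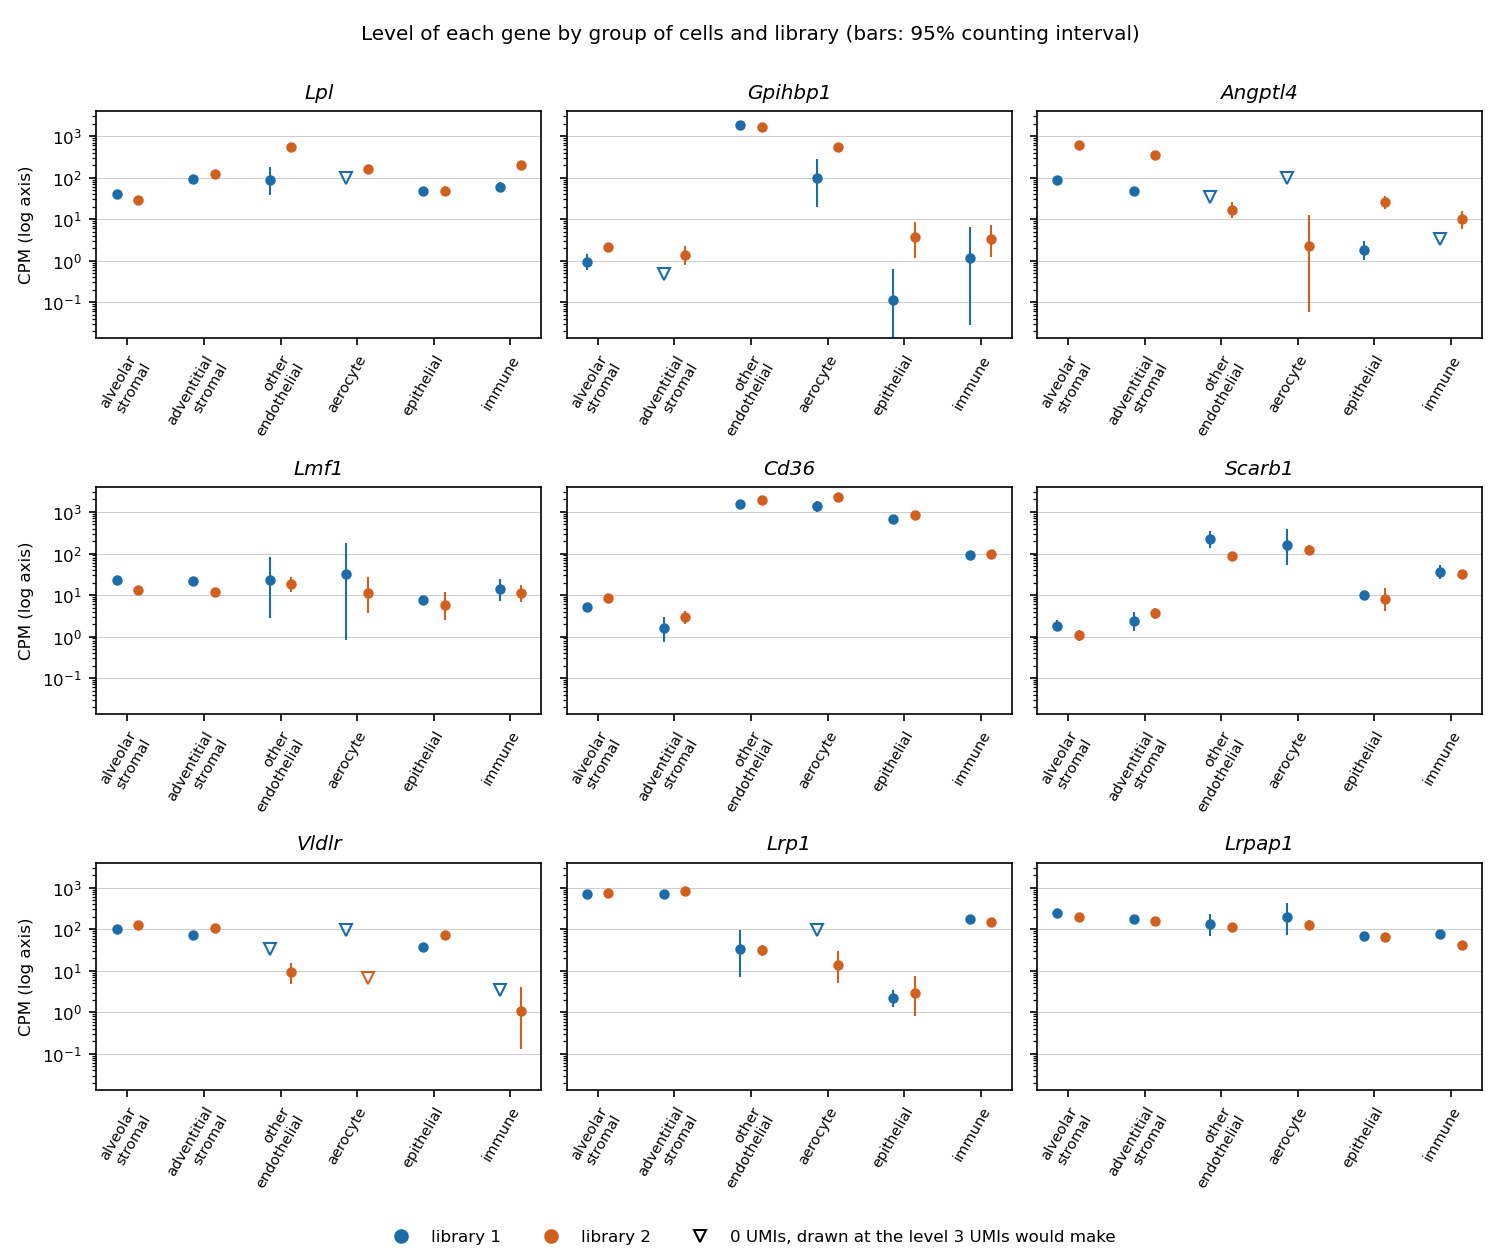
Level of each of the 9 genes (CPM, log axis) in 6 groups of cells, with 1 point per library, bars for the 95% counting interval and open triangles at the floor where no UMI was counted. *Gpihbp1* and *Cd36* reached above 1000 CPM in endothelial cells other than aerocytes in both libraries, *Lrp1* lay above 700 CPM in both stromal groups, and *Angptl4* stood apart between the libraries in every stromal group.

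*Lpl* (ENSMUSG00000015568, chromosome 8, 68880491 to 68907448 on GRCm38, plus strand) encodes lipoprotein lipase, the enzyme that hydrolyses triglyceride in chylomicrons and very low density lipoprotein. Its level in libraries 1 and 2 was 40.6 and 28.9 CPM in alveolar stromal cells, 77.3 and 80.8 CPM in stromal cells with 1 or 2 *Dcn* UMIs, and 91.3 and 121.7 CPM in adventitial cells. It was thus higher with more *Dcn* in both libraries, and the ranges of the alveolar and adventitial groups did not overlap. Among the other groups *Lpl* had 47.3 and 49.1 CPM in epithelial cells, 60.4 and 204.1 CPM in immune cells, 90.1 and 563.3 CPM in endothelial cells other than aerocytes, and 0 (floor 97.5) and 164.9 CPM in aerocytes. Libraries disagreed most on the endothelial and immune values, where library 2 was the higher. In the order of mean levels, which ran from other endothelial through immune, adventitial, aerocyte and epithelial to alveolar cells, every neighbouring pair overlapped between libraries except epithelial and alveolar cells.

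The share of cells with a *Lpl* UMI told the same stromal order at equal depth. With each cell thinned to 2000 UMIs, it was 6.94% and 3.98% in alveolar cells and 15.4% and 18.8% in adventitial cells. Unthinned, the shares were 12.4% and 12.4% in alveolar cells (median depth 3958.0 and 6545.0 UMIs) and 32.8% and 56.4% in adventitial cells (6034.0 and 10655.5 UMIs). T cell-like cells, which should lack the gene, held no *Lpl* UMI (16 and 67 cells, median depth 3102.5 and 4720.0). Endothelial cells other than aerocytes had a *Lpl* UMI in 147 of 251 thinned cells of library 2 (58.6%) and in 1 of 17 of library 1. Most such cells of library 2 thus carried the transcript, and few of library 1 did, also without thinning (71.8% and 13.3%).

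Differences between groups were fitted across all genes on the summed UMIs with edgeR, with the library as a block. They are given as log2 differences after scaling for RNA composition, with a standard error (SE) and a p-value adjusted over all genes tested, and a gene is called at an adjusted p under 0.05. For *Lpl*, the endothelial level exceeded the stromal level by 2.06 (SE 0.404, adjusted p = 0.000199). That value rested on library 2: the difference was 2.96 without library 1 and -0.12 without library 2. In library 1 the endothelial to stromal ratio of CPM was 1.22 with a counting interval of 0.527 to 2.42, from 8 endothelial UMIs, and in library 2 it was 8.60 (7.97 to 9.28). Epithelial cells differed from stromal cells by 0.41 (SE 0.360, adjusted p = 0.382), and the sign changed to -0.15 without a scaling factor. Within the stroma, adventitial cells exceeded alveolar cells by 1.55 (SE 0.387, adjusted p = 0.00733), with 1.25 in library 1 alone and 2.08 in library 2 alone. The adventitial difference was therefore present in both libraries and the endothelial difference in 1 of them.

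*Gpihbp1* (ENSMUSG00000022579, chromosome 15, 75596628 to 75599481, plus strand) encodes the protein that binds lipoprotein lipase and carries it to the capillary lumen. Endothelial cells held 1389 and 1404 CPM and stromal cells 0.791 and 1.89 CPM in libraries 1 and 2. The epithelial and immune classes held 0.116 and 3.66 CPM and 1.14 and 3.31 CPM. *Gpihbp1* was therefore high in endothelial cells and near 0 in the rest, and the 3 other classes overlapped. As a yardstick for RNA that strays between droplets, the endothelial gene *Cldn5* had 1.08 and 3.21 CPM in stromal cells against 5011 and 4062 CPM in endothelial cells, and whether the few stromal *Gpihbp1* UMIs have that origin was not tested. The endothelial minus stromal difference was 9.85 (SE 0.429, adjusted p = 1.19e-15), and the epithelial and immune differences from stroma were not called (-0.14 and 1.08, adjusted p = 0.896 and 0.233).

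Within the endothelium, *Gpihbp1* had 1836 and 1664 CPM in cells other than aerocytes and 97.5 (3 UMIs) and 563.3 CPM in aerocytes, values that the grouping rule shapes. When the grouping used *Car4* and *Ednrb* against *Plvap* alone, the aerocyte group grew to 13 and 90 cells and its *Gpihbp1* level to 267 and 865 CPM, against 1829 and 1663 CPM in the other cells. The aerocyte level thus stayed below the other cells with *Gpihbp1* out of the rule, by a margin that depends on the rule.

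*Lmf1* (ENSMUSG00000002279, chromosome 17, 25579085 to 25662826, plus strand) encodes lipase maturation factor 1, which the lipase needs to fold in the endoplasmic reticulum. Its level was 22.4 and 12.9 CPM in alveolar, 22.1 and 11.9 in adventitial, 25.1 (3 UMIs) and 16.8 in all endothelial, 13.7 and 11.03 in immune and 7.51 and 5.86 CPM in epithelial cells. Only the epithelial range lay below those of all 5 other groups. The epithelial minus stromal difference of -0.86 (SE 0.349, adjusted p = 0.0457) was the sole one called for *Lmf1*, and it was -1.03 without library 2 and -0.57 without library 1. It missed the threshold with no block (-0.78), with median-of-ratios size factors (-0.80), at a mitochondrial limit of 5% (-0.75) and after thinning (-1.26). The maturation factor was thus found in every group, with the epithelial cells lowest.

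*Angptl4* (ENSMUSG00000002289, chromosome 17, 33773750 to 33781830, minus strand) encodes a secreted inhibitor that inactivates lipoprotein lipase. Alveolar stromal cells held 88.2 CPM in library 1 and 619.8 CPM in library 2, cells with 1 or 2 *Dcn* UMIs 65.0 and 473.8 CPM, and adventitial cells 48.0 and 350.8 CPM. Library 2 was the higher in each stromal group, by 7.02-fold over the whole stromal class, yet alveolar cells stood above adventitial cells in each library. The share of alveolar cells with an *Angptl4* UMI after thinning was 14.5% in library 1 and 65.7% in library 2, so that the gap between libraries was also present at equal depth. *Lipg*, which encodes endothelial lipase, differed between libraries in the same direction in alveolar cells (5.16 and 36.9 CPM), while *Lrp1* differed far less (707.8 and 746.5 CPM). What sets the libraries apart was not tested, since each library is 1 sample.

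Outside the stroma, *Angptl4* was counted at 1.85 and 25.6 CPM in epithelial cells, at 0 (floor 25.1) and 13.5 CPM in endothelial cells and at 0 (floor 3.42) and 9.93 CPM in immune cells. As a share of the stromal level of the same library, library 2 gave 4.69% in epithelial, 2.48% in endothelial and 1.82% in immune cells, beside 0.182%, 1.48% and 1.10% for the stromal gene *Col3a1*. The stromal class was therefore the main source of *Angptl4* in both libraries, and the part of stray RNA in the low remainder was not tested. The difference from stroma was -5.66 (SE 0.415, adjusted p = 2.51e-11) for endothelial, -4.29 (SE 0.299, adjusted p = 4.00e-12) for epithelial and -5.80 (SE 0.394, adjusted p = 2.70e-12) for immune cells. Adventitial minus alveolar cells gave -0.83 (SE 0.232, adjusted p = 0.0195), with -0.80 and -0.81 in the libraries taken alone. This difference missed the threshold with no block. The contrast within the stroma was thus alike in libraries whose levels differed 7.02-fold.

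*Cd36* (ENSMUSG00000002944, chromosome 5, 17781690 to 17888801, minus strand) encodes a membrane glycoprotein that takes up long-chain fatty acids and oxidised lipoproteins. Endothelial cells other than aerocytes held 1521 and 1918 CPM, aerocytes 1365 and 2256 CPM, epithelial cells 678 and 831 CPM and immune cells 90.1 and 95.4 CPM in libraries 1 and 2. Alveolar and adventitial stromal cells held 5.04 and 8.38 CPM and 1.58 and 2.94 CPM. The order endothelial, epithelial, immune, alveolar, adventitial held in both libraries, and the only neighbours that overlapped were the endothelial groups. All 11 and 66 aerocytes had a *Cd36* UMI, as did 98.5% and 93.1% of epithelial cells (median depth 9340.5 and 13627.0 UMIs), against 1.72% and 5.19% of alveolar stromal cells (3958.0 and 6545.0 UMIs). After thinning, the shares were 71.4% and 74.3% in epithelial and 0.789% and 1.78% in alveolar cells. Most epithelial cells and every aerocyte thus carried *Cd36*, and few stromal cells did.

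The *Cd36* difference from stroma was 8.10 (SE 0.317, adjusted p = 2.85e-16) for endothelial, 7.70 (SE 0.311, adjusted p = 1.73e-16) for epithelial and 4.40 (SE 0.278, adjusted p = 6.35e-13) for immune cells. The low stromal counts differed as well, with adventitial below alveolar cells by -1.53 (SE 0.378, adjusted p = 0.00676), a call that was lost with no block. With cells that held any UMI of another class's markers left out, alveolar cells kept 4.33 and 7.54 CPM of *Cd36*. The epithelial gene *Sftpc*, a gauge of stray RNA, had 492.6 and 121.2 CPM in alveolar stromal cells and *Cldn5* 1.15 and 3.58 CPM, and both were lower in adventitial cells, as *Cd36* was (*Sftpc* 250.3 and 97.1 CPM, *Cldn5* 0.474 and 2.16 CPM). The part of stray RNA in the stromal *Cd36* counts, and in their difference, was not tested. The *Cd36* promoter is shown because *Cd36*, of the 5 genes with a promoter in the table used, was the 1 called in 4 of the 5 comparisons. It runs from 250 bases before to 50 after a start of the gene in the RefSeq table of build GRCm38.p6, with capitals on matches, on either strand, of GGGCGG (2 matches), CCAAT (1) and AGGTCA (1); TATAAA and TCACNCCAC had none.
*Cd36* promoter, chr5:17835847-17836146, minus strand: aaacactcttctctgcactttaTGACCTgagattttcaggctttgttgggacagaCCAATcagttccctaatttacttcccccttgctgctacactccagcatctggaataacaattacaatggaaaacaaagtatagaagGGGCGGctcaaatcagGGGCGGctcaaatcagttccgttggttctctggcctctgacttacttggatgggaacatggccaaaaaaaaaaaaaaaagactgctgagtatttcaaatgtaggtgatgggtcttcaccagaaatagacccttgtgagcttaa
Of 32851 promoters of this length, 35.7% held GGGCGG, 37.4% CCAAT, 16.3% AGGTCA, 13.6% TATAAA and 1.2% TCACNCCAC. A match is a description of the letters and not of a bound site. With 43.0% G or C bases and 3 CpG pairs, the window lay under the medians of all promoters, 52.7% and 7.

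*Scarb1* (ENSMUSG00000037936, chromosome 5, 125277087 to 125341094, minus strand) encodes scavenger receptor class B type 1, which takes up cholesterol esters from high density lipoprotein. Endothelial cells other than aerocytes held 225.3 and 88.6 CPM, aerocytes 162.5 (5 UMIs) and 123.7 CPM, immune cells 36.5 and 31.4 CPM, and epithelial cells 9.83 and 8.06 CPM. Adventitial and alveolar stromal cells held 2.37 and 3.63 CPM and 1.84 and 1.08 CPM. Each step of this order was free of overlap between the libraries except that between the endothelial groups. The difference from stroma was 5.91 (SE 0.314, adjusted p = 4.99e-14) for endothelial, 4.46 (SE 0.311, adjusted p = 4.34e-12) for immune and 2.77 (SE 0.320, adjusted p = 4.88e-08) for epithelial cells. Adventitial cells exceeded alveolar cells by 1.20 (SE 0.339, adjusted p = 0.0204), a value that library 2 carried: it was 0.44 without library 2 and 1.74 without library 1, from 57 and 85 UMIs in all. That call was also lost with no block. *Scarb1* was therefore highest in endothelial cells, then immune and epithelial cells, and lowest in the stroma.

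*Vldlr* (ENSMUSG00000024924, chromosome 19, 27216484 to 27254231, plus strand) encodes the very low density lipoprotein receptor, an endocytic receptor for triglyceride-rich particles. Alveolar stromal cells held 103.6 and 129.9 CPM, adventitial cells 74.7 and 108.4 CPM and epithelial cells 37.8 and 72.5 CPM. In endothelial cells other than aerocytes it was 0 (floor 33.8) and 9.21 CPM, in aerocytes 0 and 0 (floors 97.5 and 6.87), and in immune cells 0 (floor 3.42) and 1.10 CPM (2 UMIs). *Vldlr* was thus a stromal and epithelial transcript, at or near 0 in immune cells and low in the endothelial cells of library 2. All endothelial cells of that library had 5.71% of the stromal level, beside 1.48% for *Col3a1*, and the part of stray RNA was not tested. In library 1 the endothelial floors lay close to or above the epithelial level of 37.8 CPM. The share of cells with a *Vldlr* UMI after thinning was 17.7% and 22.5% in alveolar, 8.66% and 15.8% in epithelial and 0 of 185 and 0 of 310 in immune cells. Unthinned, it was 31.5% and 53.6% in alveolar, 27.2% and 56.4% in epithelial and 0% and 0.599% in immune cells, the last at a median depth of 3024.0 and 4552.0 UMIs.

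The endothelial minus stromal difference of *Vldlr* was -4.50 (SE 0.419, adjusted p = 2.11e-09). For immune cells the stromal level was 152-fold higher over both libraries, with a counting interval of 42.1 to 1255, from 2 immune UMIs, and the fitted difference of -7.06 (adjusted p = 1.45e-11) is no firmer than that interval. Epithelial cells differed from stroma by -0.52 (SE 0.239, adjusted p = 0.0820), which was past the threshold at a mitochondrial limit of 5% (-0.63) and without a scaling factor (-1.07). Adventitial and alveolar cells differed by -0.34 (SE 0.210, adjusted p = 0.446). The step between endothelium and stroma was therefore large, and the step between epithelium and stroma was not resolved with 2 libraries.

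*Lrp1* (ENSMUSG00000040249, chromosome 10, 127538161 to 127621148, minus strand) encodes low density lipoprotein receptor-related protein 1, a large endocytic receptor of remnant particles and of many other ligands. Alveolar and adventitial stromal cells held 707.8 and 746.5 CPM and 717.6 and 814 CPM. Immune cells held 181.3 and 146.2 CPM, endothelial cells other than aerocytes 33.8 (3 UMIs) and 31.2 CPM, aerocytes 0 (floor 97.5) and 13.7 CPM, and epithelial cells 2.20 and 2.93 CPM. *Lrp1* was therefore high and even in the stroma, intermediate in immune cells and low in endothelial and epithelial cells, with the ranges of aerocytes and epithelial cells overlapping. Its epithelial level was 0.307% and 0.381% of the stromal level, beside 0.260% and 0.182% for *Col3a1*, a gauge of stray RNA. Endothelial cells had 3.51% and 3.52% of the stromal level, beside 1.57% and 1.48% for *Col3a1*. The part of stray RNA in the *Lrp1* counts of both classes was not tested. With cells that held any UMI of another class's markers left out, *Lrp1* in endothelial cells other than aerocytes had 0 UMIs in 37 cells of library 1 (floor 42.1) and 15.5 CPM in 213 cells of library 2.

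The share of stromal cells with a *Lrp1* UMI was 88.8% and 97.1% (median depth 4297.0 and 7083.5 UMIs), against 1.83% and 3.96% of epithelial cells (9340.5 and 13627.0 UMIs). After thinning the shares were 73.9% and 75.6% in stromal and 0.433% and 0.990% in epithelial cells. Against stroma, *Lrp1* differed by -7.76 (SE 0.348, adjusted p = 1.02e-15) in epithelial, -4.95 (SE 0.318, adjusted p = 1.96e-12) in endothelial and -1.91 (SE 0.239, adjusted p = 1.96e-07) in immune cells. Adventitial and alveolar cells differed by 0.10 (SE 0.261, adjusted p = 0.918). The receptor thus passed the threshold against each other class, and no difference within the stroma was detected.

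*Lrpap1* (ENSMUSG00000029103, chromosome 5, 35091501 to 35105766, minus strand) encodes the receptor-associated protein, a chaperone that keeps receptors of this family from binding ligands early in the secretory pathway. Alveolar cells held 249.9 and 203.1 CPM, adventitial cells 180.1 and 159.3 CPM, aerocytes 195 (6 UMIs) and 128.2 CPM, other endothelial cells 135.2 and 111.2 CPM, immune cells 77.5 and 43.0 CPM and epithelial cells 68.9 and 66.7 CPM. *Lrpap1* was thus found in every group, with alveolar cells highest in both libraries and the epithelial and immune classes lowest and overlapping. The difference from stroma was -0.89 (SE 0.255, adjusted p = 0.00770) in endothelial, -1.10 (SE 0.234, adjusted p = 0.000325) in epithelial and -1.59 (SE 0.248, adjusted p = 6.12e-06) in immune cells. The endothelial difference missed the threshold with no block and after thinning. The chaperone was thus lower in each of the 3 other classes, by 1.86-fold, 2.15-fold and 3.00-fold.

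The promoters of *Lrp1*, *Lrpap1* and *Vldlr* are shown because all 3 genes were higher in stromal than in endothelial cells. They come from the same RefSeq table, which held a promoter for 5 of the 9 genes (*Cd36*, *Lmf1*, *Lrp1*, *Lrpap1* and *Vldlr*), and capitals again mark the motifs searched on both strands.
*Lrp1* promoter, chr10:127621099-127621398, minus strand: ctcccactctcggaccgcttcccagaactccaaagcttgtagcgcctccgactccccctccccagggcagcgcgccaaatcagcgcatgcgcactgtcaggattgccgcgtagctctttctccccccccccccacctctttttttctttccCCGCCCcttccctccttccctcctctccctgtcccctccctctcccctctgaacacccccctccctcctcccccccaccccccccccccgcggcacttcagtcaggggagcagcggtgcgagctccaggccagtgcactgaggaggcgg
*Lrpap1* promoter, chr5:35105650-35105949, minus strand: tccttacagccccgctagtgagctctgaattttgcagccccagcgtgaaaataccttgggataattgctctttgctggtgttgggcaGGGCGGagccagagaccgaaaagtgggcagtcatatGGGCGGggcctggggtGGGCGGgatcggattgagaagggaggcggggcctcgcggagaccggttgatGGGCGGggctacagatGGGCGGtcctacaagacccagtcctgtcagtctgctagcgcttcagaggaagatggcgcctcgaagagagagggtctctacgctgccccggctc
*Vldlr* promoter, chr19:27216770-27217069, plus strand: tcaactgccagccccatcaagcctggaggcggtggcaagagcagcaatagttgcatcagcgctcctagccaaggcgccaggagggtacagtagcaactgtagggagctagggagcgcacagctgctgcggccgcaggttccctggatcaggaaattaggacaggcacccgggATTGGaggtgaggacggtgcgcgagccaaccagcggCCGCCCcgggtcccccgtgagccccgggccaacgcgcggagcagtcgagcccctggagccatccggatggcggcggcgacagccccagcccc
The *Lrpap1* window held 5 matches of GGGCGG, the *Lrp1* window 1 (as CCGCCC, its reverse complement), and the *Vldlr* window 1 match each of GGGCGG and CCAAT, both on the opposite strand. Another listed *Vldlr* window, at chr19:27216234-27216533, holds the gene start given above (27216484). It had none of the 5 motifs and is not printed. The G or C content was 61.3% for *Lrpap1*, 67.7% for *Lrp1* and 68.0% for the printed *Vldlr* window, but 43.0% for the other *Vldlr* window. Holding a GGGCGG match sets the genes little apart, as 35.7% of all promoters held the motif. The share of promoters with 5 matches was not counted.

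**Figure D2:**
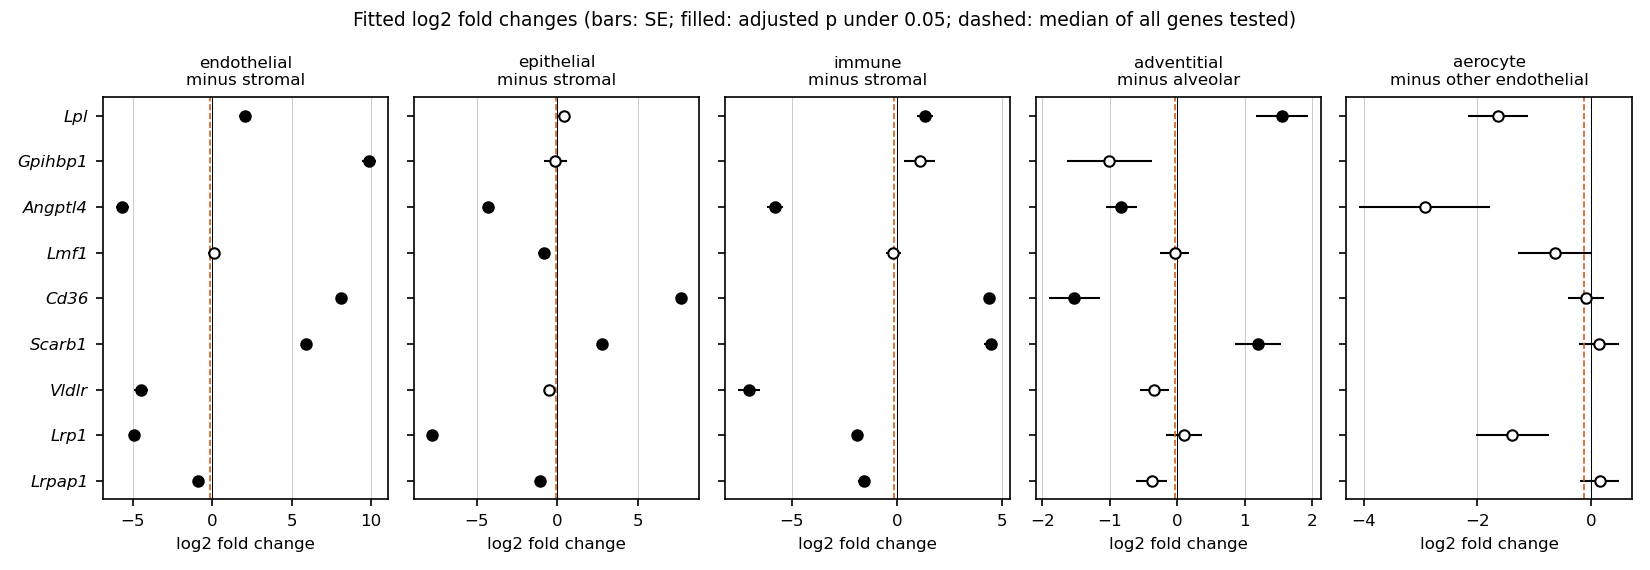
Fitted log2 difference of each gene in 5 comparisons (points; bars are the SE; filled points have an adjusted p under 0.05), with the median of all genes tested as a dashed line. *Gpihbp1*, *Cd36* and *Scarb1* lay at 5.91 or more for endothelial minus stromal cells while *Angptl4*, *Vldlr* and *Lrp1* lay at -4.50 or less; *Gpihbp1* (part of the rule) and *Vldlr* (0 UMIs in aerocytes) are not drawn in the panel of aerocytes.

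All 9 genes passed the filter on low counts. Of these, 8 were called between endothelial and stromal cells, where 32.1% of 11832 genes tested were called: 4 were higher (14.7% of all genes) and 4 lower (17.4%) in endothelial cells. Between epithelial and stromal cells 6 were called, against 46.0% of all genes, with 2 higher (21.8%) and 4 lower (24.2%) in epithelial cells. Between immune and stromal cells 7 were called, against 50.8% of all genes, with 3 higher (23.7%) and 4 lower (27.1%) in immune cells. These comparisons share the stromal sums, so they are set side by side and not counted as separate evidence. The median difference of the 9 genes was 0.10, -0.52 and -0.17 in the 3 comparisons, beside -0.12, -0.09 and -0.13 over all genes tested, and none of the 9 was at 0 in a class as a whole. The genes thus moved apart in both directions, and a median over genes that go both ways does not describe the set. In words, *Cd36* and *Scarb1* were higher than stroma in each of the 3 other classes and *Angptl4*, *Lrp1* and *Lrpap1* lower in each.

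Scaling moves these values. With total UMIs alone in place of the composition factors, the median of all genes shifted by 0.17 in endothelial, -0.55 in epithelial and -0.27 in immune cells against stroma, and median-of-ratios factors shifted it by 0.12 in immune cells. The split of called genes between higher and lower changed from 2583 and 2860 to 1695 and 5196 in epithelial cells and from 2805 and 3201 to 2337 and 4107 in immune cells without a scaling factor. It went the other way in endothelial cells without a scaling factor (1742 and 2056 to 2052 and 1677), and with median-of-ratios factors in epithelial (2774 and 2645) and immune cells (3093 and 2900). Without a scaling factor the called members kept their directions, and those of *Lpl* in epithelial cells (0.41 to -0.15) and of *Cd36* in aerocytes (-0.09 to 0.08), neither called, changed.

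Between adventitial and alveolar stromal cells 4 of the 9 genes were called, against 8.91% of 11905 genes tested. *Lpl* and *Scarb1* were higher in adventitial cells (5.84% of all genes were) and *Angptl4* and *Cd36* lower (3.07%). The median of the 9 genes was -0.34, beside -0.03 over all genes. The calls depended on the test. DESeq2 called 1 of the 9 and 490 of all genes, and edgeR without the library block called 0 of the 9 and 291 of all genes. With the block, edgeR had 4 of the 9 at an unadjusted p under 0.05, where 18% of all genes tested had such a p. Enzyme and inhibitor therefore lay on opposite sides within the stroma, *Lpl* with the adventitial and *Angptl4* with the alveolar cells, in both libraries. In single alveolar cells after thinning, *Lpl* was found in 6.95% of cells with and 6.94% of cells without an *Angptl4* UMI in library 1, and in 3.26% and 5.35% in library 2. The exact Clopper-Pearson intervals of the shares, over cells of 1 library, overlapped in library 1 and not in library 2 (2.71 to 3.89% and 4.38 to 6.46%). Cells of 1 library are not replicates, and the difference was not tested between libraries.

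Retinoid storage offers a further split of the same cells, since the sort was made on retinoid. *Lrat*, which encodes the enzyme that esterifies retinol, had a UMI in 2002 of 5070 thinned alveolar cells in library 1 and in 897 of 5504 in library 2. *Lpl* was found in 7.74% of the cells with and 6.42% of the cells without a *Lrat* UMI in library 1, and in 4.68% and 3.84% in library 2. In adventitial cells *Lpl* was found in 16.8% and 14.3% in library 1 and in 21.9% and 17.4% in library 2. The share was thus higher with a *Lrat* UMI in both groups and both libraries, with exact intervals over cells that overlapped each time, and the difference was not tested between libraries. In alveolar cells *Vldlr* was found in 18.1% with and 17.5% without a *Lrat* UMI in library 1, then 22.3% and 22.6% in library 2. For *Vldlr* the side with the higher share was not the same in the 2 libraries.

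Aerocytes and other endothelial cells were compared for the 8 genes that the rule did not use. edgeR called 0 of the 8, against 2.23% of 11905 genes tested (1.12% higher and 1.12% lower). DESeq2 called 0 of the 8 and 236 of all genes. In edgeR 4 of the 8 had an unadjusted p under 0.05 (*Lpl*, *Angptl4*, *Vldlr* and *Lrp1*). Of all genes tested, 12.1% had such an unadjusted p, 476 higher and 963 lower in aerocytes. *Lpl* differed by -1.64 (SE 0.521, adjusted p = 0.113), and in library 2 the other endothelial cells held 3.42 times the aerocyte level (counting interval 2.68 to 4.41). *Vldlr* had 0 aerocyte UMIs in both libraries, against 0 and 13 UMIs in the other endothelial cells of libraries 1 and 2. With 3 UMIs put in place of the aerocyte 0, its level over both libraries would be 1.35-fold lower. That figure leaves out the counting error of the 13 UMIs, so a difference is not established. For *Angptl4* 1 aerocyte UMI was counted, and the ratio in favour of the other cells was 7.48 with an interval of 1.22 to 307.6. These values depended on the rule. With *Gpihbp1* out of it, the fitted differences were -1.01 for *Lpl*, -0.32 for *Angptl4*, -1.41 for *Vldlr* and -0.49 for *Lrp1*. Library 2 then had 261.3 against 569.3 CPM of *Lpl*, 11.7 against 14.4 CPM of *Angptl4* and 3.33 (2 UMIs) against 8.82 CPM of *Vldlr* in aerocytes and other cells. *Cd36* and *Scarb1* differed by -0.09 and 0.14 under the first rule (adjusted p = 1 and 0.971). The median of the 8 genes was -1.01, or -0.53 with the gene at 0 set to its bound, beside -0.13 over all genes. With 11 aerocytes in library 1, this comparison rests in the main on library 2.

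The immune class was split by marker lists, since its *Lpl* level differed between libraries. In library 2, 15 cells with alveolar macrophage markers (5 of 5 detected, most abundant *Chil3*) held 325 of the 370 immune *Lpl* UMIs, or 87.8%, at 2120 CPM. The other 319 immune cells of that library held 27.1 CPM. In library 1, 4 such cells held 9 of 53 UMIs and the other 262 held 51.6 CPM. The immune excess of *Lpl* over stroma (1.35, SE 0.380, adjusted p = 0.00413) was 0.42 without library 2 and 2.12 without library 1, and with the alveolar macrophage-like cells left out, an alternative chosen after seeing the data, it was -0.24. The call was also lost with DESeq2 and with no block. The immune *Lpl* excess was thus absent without the alveolar macrophage-like cells of both libraries, of whose *Lpl* UMIs 325 lay in the 15 cells of library 2.

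*Lrp1*, *Cd36* and *Scarb1* were followed over the same immune groups. *Lrp1* was 308.8 and 267.5 CPM in monocyte-like cells (87 and 67 cells), 159.5 and 179.6 CPM in macrophage-like cells with complement C1q (43 and 23), and 137.7 and 143.4 CPM in dendritic cell-like cells (17 and 33). *Cd36* was 144.5 and 179.1 CPM in monocyte-like cells and 130 and 124.4 CPM in C1q macrophage-like cells. *Scarb1* was 87.8 and 98.2 CPM in monocyte-like cells, and in C1q macrophage-like cells 0 (floor 17.7) and 20.7 CPM (3 UMIs). Alveolar macrophage-like cells of library 2 held 443.5 CPM of *Lrp1* and 260.9 CPM of *Cd36*. Monocyte-like cells thus carried all 3 genes in both libraries, while neutrophil-like cells had 0 UMIs of *Scarb1* in both (floors 35.9 and 36.7) and of *Lrp1* 0 (floor 35.9) and 97.9 CPM (8 UMIs). T cell-like cells had at most 1 UMI of *Lrp1* and of *Scarb1* in either library. *Cd36* was also counted in lymphoid cells, with 35.3 (2 UMIs) and 48.7 CPM in B cell-like cells and 0 (floor 60.5) and 21.3 CPM in T cell-like cells.

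**Figure D3:**
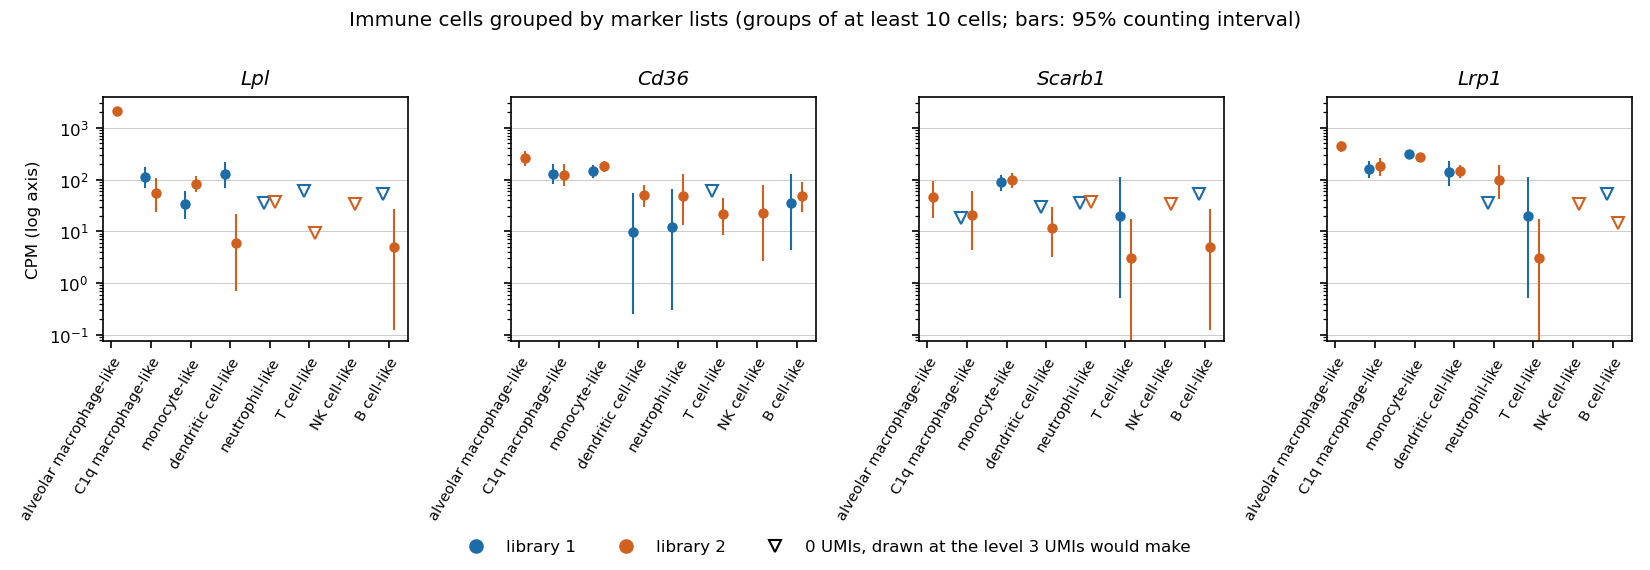
Level (CPM, log axis) of *Lpl*, *Cd36*, *Scarb1* and *Lrp1* in immune cells grouped by marker lists, 1 point per library, bars for the 95% counting interval, triangles at the floor for 0 UMIs and no point for groups under 10 cells. *Lpl* reached 2120 CPM in alveolar macrophage-like cells of library 2, and *Scarb1* was highest in monocyte-like cells at 87.8 and 98.2 CPM.

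Other genes of the pathway were taken from 5 lists. Among 20 lipase partners, inhibitors and related lipases, 15 were tested, of which 2 were higher and 7 lower in endothelial, 7 and 5 in epithelial and 3 and 8 in immune than in stromal cells. Of all genes tested, 14.7% were higher and 17.4% lower in endothelial, 21.8% and 24.2% in epithelial and 23.7% and 27.1% in immune cells, and the same shares stand beside the counts of the 4 lists that follow. The median differences of the list were -0.99, -0.42 and -0.66 (-1.07, 0.12 and -0.66 with genes at 0 in a class set to their bound), beside -0.12, -0.09 and -0.13 over all genes. *Apoc2*, which encodes the activator of the lipase, had 190.4 and 112.5 CPM in immune cells and 0 UMIs in stromal cells (floors 0.0879 and 0.0512). *Angptl8*, another member of the inhibitor family, had 21.6 and 13.5 CPM in stromal cells and 0 UMIs in endothelial cells (floors 25.1 and 1.62), so that library 2 alone shows a difference. *Sdc1*, which encodes a heparan sulfate proteoglycan that binds the lipase, differed by 7.63 in epithelial cells (SE 0.289, adjusted p = 6.30e-17) with 302.8 and 303.9 CPM against 2.20 and 2.27 in stroma. The activator was thus higher in immune than in stromal, the inhibitor in stromal than in endothelial (library 2) and the binding partner in epithelial than in stromal cells.

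Of 19 genes of the low density lipoprotein receptor family and its adaptors, 15 were tested, with 1 higher and 6 lower in endothelial, 5 and 5 in epithelial and 4 and 6 in immune than in stromal cells (medians -0.68, 0.09 and -0.52, or -0.68, 0.09 and 0.22 with bounds). *Lrp2*, the receptor megalin, had 177.2 and 172.8 CPM in epithelial cells and 0.176 and 0.0853 in stromal cells, a difference of 10.93 (SE 0.411, adjusted p = 1.24e-16). *Lsr*, a lipolysis-stimulated receptor, had 33.1 and 43.2 CPM in epithelial and 0.147 and 0.392 CPM in stromal cells. *Sorl1* had 64.4 and 75.7 CPM in stromal and 1 UMI in endothelial cells. The epithelial class, the lowest of the 4 classes for *Lrp1*, thus held *Lrp2*, another receptor of the family.

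Of 15 scavenger and other lipoprotein receptors, 12 were tested, with 4 higher and 3 lower in endothelial, 2 and 5 in epithelial and 6 and 5 in immune cells (medians 0.53, -1.98 and 0.95, or 3.37, -0.21 and 0.95 with bounds). The 4 higher in endothelial cells were *Scarf1*, *Stab1*, *Cav1* and *Acvrl1*, the last of which had 1364 and 1109 CPM against 95.9 and 90.4 in stroma. In immune cells the largest called differences were those of *Cd163*, *Msr1* and *Olr1*, and in stromal cells against epithelial cells that of *Colec12* (529.2 and 624 CPM against 1.39 and 4.39). Scavenger receptors beside *Cd36* and *Scarb1* thus also differed between these classes.

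Of 20 genes of fatty acid uptake and activation, 15 were tested, with 1 higher and 7 lower in endothelial, 4 and 4 in epithelial and 7 and 5 in immune cells (medians -0.26, 0.42 and 0.63, the same with bounds). *Fabp5* had 2585 and 1230 CPM in epithelial and 15.4 and 13.2 CPM in stromal cells, a difference of 7.60 (SE 0.397, adjusted p = 1.62e-14). *Meox2*, a transcription factor, had 94.4 and 94.8 CPM in stromal and 2 UMIs in endothelial cells, and *Slc27a6*, a fatty acid transporter, had 11.6 and 11.8 CPM in stromal and 0 UMIs in endothelial (floors 25.1 and 1.62, the first above the stromal level) and epithelial cells (floors 0.347 and 2.20). Between adventitial and alveolar cells *Fabp3* gave the largest called fall of the list, -2.48 (SE 0.264, adjusted p = 5.48e-08), from 78.6 and 67.1 CPM to 14.5 and 11.4 CPM. Alveolar stromal cells thus had more of this binding protein than adventitial cells in both libraries.

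Of 8 genes of retinoid uptake and storage, 6 were tested, with 0 higher and 4 lower in endothelial, 1 and 4 in epithelial and 2 and 3 in immune than in stromal cells (medians -3.74, -1.98 and -3.36, the same with bounds). *Rbp4* exceeded alveolar cells in adventitial cells by 3.44 (SE 0.283, adjusted p = 7.50e-10), with 769.2 and 303.9 CPM against 51.5 and 42.2. Between those stromal groups the 5 lists gave 1 higher and 4 lower (lipase partners), 2 and 1 (receptor family), 2 and 0 (scavenger receptors), 0 and 2 (fatty acid uptake) and 3 and 0 (retinoid), beside 5.84% higher and 3.07% lower of all genes, with medians of -0.18, 0.09, 0.25, -0.03 and 0.48 (-0.20, 0.09, 0.25, -0.00 and 0.48 with bounds). *Rbp4* thus went the way of *Lpl*, and *Fabp3* and *Lipg* (-2.28, SE 0.476, adjusted p = 0.00146) the way of *Angptl4*. Between aerocytes and other endothelial cells *Apoe* was the 1 gene of the lists that edgeR called (-1.74, SE 0.445, adjusted p = 0.0303).

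In library 2 most UMIs of *Gpihbp1*, *Cd36*, *Scarb1* and *Lpl* lay in cells that the rule left out. In library 1 this held, of these genes, for *Gpihbp1* alone. Cells with markers of more than 1 class held 85.1% of the *Gpihbp1* UMIs, 82.7% of those of *Cd36*, 77.3% of *Scarb1* and 61.8% of *Lpl* in library 2, against 58.6%, 19.0%, 19.2% and 9.57% in library 1. For *Lrp1*, *Vldlr* and *Angptl4* library 2 had 19.3%, 22.0% and 20.3% there. Of these cells, 86 in library 1 and 931 in library 2 had stromal and endothelial markers and no others. Their *Lpl* level was 58.7 and 298.1 CPM, their *Gpihbp1* level 537.8 and 829.5 CPM and their *Lrp1* level 436.1 and 366.4 CPM, at a median of 6001.0 and 14766.0 UMIs. Each of these levels lay between those of the stromal and endothelial classes in library 2. Whether such barcodes hold 1 cell or more was not tested.

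**Figure D4:**
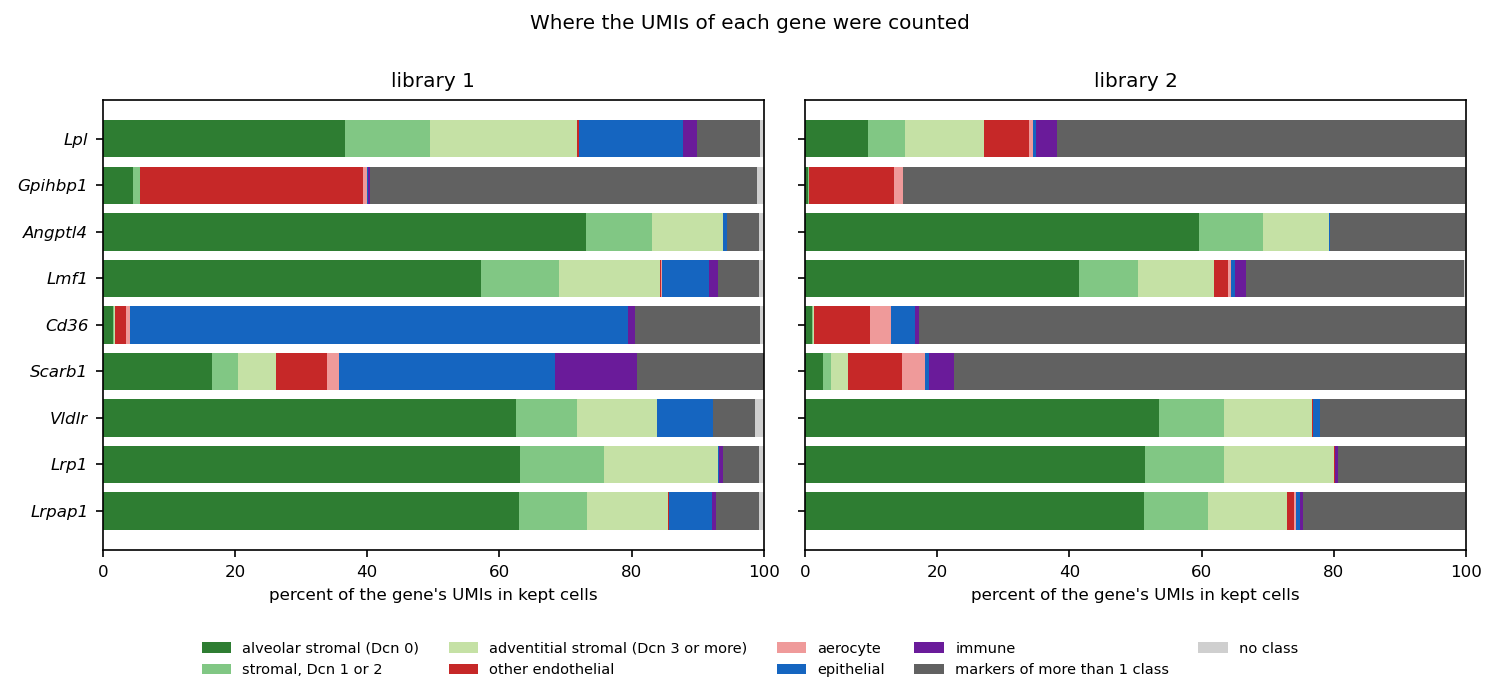
Percent of the UMIs of each gene in kept cells that was counted in each group (stacked bars, 1 panel per library). Cells with markers of more than 1 class held 85.1% of the *Gpihbp1* UMIs in library 2 and 58.6% in library 1, and alveolar stromal cells held most UMIs of *Lrp1* in both.

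The genes whose levels ran most alike were found by Pearson correlation of log2(CPM + 1) over the 12 sums of 6 groups and 2 libraries, among 6397 genes. The sums share libraries and their depth, so r is a description. *Gpihbp1* was closest to *Adgrl4* (r = 0.996), *Tie1* and *Mcam* (both 0.985), *Cd36* to *Anxa3* (0.977), *Lrg1* and *Dpp4*, and *Scarb1* to *H2-K1* (0.988), *H2-Q6* and *St3gal6*. *Lrp1* was closest to *Fn1* (0.988), *Lgals1* and *Dse*, *Vldlr* to *Enpep* (0.971), *Stbd1* and *Bmp3*, and *Angptl4* to *Dtna* (0.969), *Adamts15* and *Tpm2*. For *Lpl* the closest were *Unc119b* (0.963), *Fbrs* and *Cdk19*, for *Lmf1* *Med28* (0.959), *Ppie* and *Nfkbil1*, and for *Lrpap1* *Rxylt1* (0.985), *Atraid* and *Ctsl*. No gene of the 9 was among the 3 closest to another.

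These values come from 2 libraries of 1 condition, so that differences describe groups of sorted cells and not a response. The sort was for retinoid, and endothelial, epithelial and immune cells in it may not stand for those of the whole lung. The library 1 endothelial groups held 56 cells, and a gene at 0 there has a floor of 25.1 CPM or more. Levels are of RNA, and no protein, lipase activity or lipid uptake was measured. Cells with markers of more than 1 class were left out, and stray RNA was gauged with marker genes and not removed.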

How the data were processed

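The authors made each library with the Chromium 3' v3.1 kit, sequenced it on a NovaSeq instrument and deposited raw counts (UMIs for every gene in every barcode) from Cell Ranger 5.0.1 on build mm10. No normalization had been applied. The values were checked to be whole numbers over the same 32285 genes with different totals in the libraries. Totals were 48762735 and 93970185 UMIs, so that 1 UMI in the alveolar cells of library 2 was far under 1 CPM, while 3 UMIs in the aerocytes of library 1 made 97.5 CPM. The members and the lists of pathway and marker genes were chosen with earlier results of these data known. Gene positions are from GENCODE on GRCm38.

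Cells were grouped by marker UMIs as given with the results, and UMIs were summed per group and library with Python 3.11.15, numpy 2.4.6, scipy 1.17.1 and pandas 2.3.3; figures were drawn with matplotlib 3.10.9. Sums were fitted with edgeR 4.0.16 under R 4.3.3 (TMM scaling, filterByExpr with its defaults, the quasi-likelihood F test, Benjamini-Hochberg adjustment over all genes tested). The 4 classes gave 1 fit of 8 sums and the 6 groups 1 fit of 12 sums. Every library holds every class, so the library pairs its classes and entered as a block. The block takes out each library's own level. The p-values therefore set a difference between groups against how much such differences vary between the 2 libraries, and that variation may be technical.

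Alternatives were 5 marker UMIs, no UMI of another class's markers, a mitochondrial limit of 5%, DESeq2 size factors, no scaling factor, the DESeq2 1.42.0 Wald test, no filter, no block, either library left out, cells thinned to 2000 UMIs, the top 5% of cells left out, and other subgroup limits for aerocytes and alveolar cells. The immune class without alveolar macrophage-like cells, and cells whose barcode was found in both libraries left out, were added after seeing the data. Shares of cells have exact Clopper-Pearson 95% intervals, CPM exact Poisson intervals, and ratios of CPM exact intervals conditional on their total count. Within a class, a cell took the marker list with the most UMIs, at least 3 and without a tie, and groups under 10 cells have no CPM. The genes named are the 9 members, in each comparison the 5 listed pathway genes with the largest change in each direction among those called that reach a mean of 10 CPM in the higher group (a selection of which is given), the 3 genes most alike each member among those that average 20 CPM or more, and markers.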

Additional observations from a re-analysis of the deposited data

How the results depend on the processing

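The 44 differences of a member between groups, and the counts of members and of all genes called, were computed again under each alternative, except that other subgroup limits bear on the 17 differences between subgroups and that a left-out library gave no counts. Under edgeR or DESeq2 alternatives with both libraries, the 25 called differences kept their sign, except that of *Lpl* between immune and stromal cells (1.35), which was -0.24 without the alveolar macrophage-like cells. With no replicate block, 7 member calls were lost, those of *Lrpap1* in endothelial (-0.98), *Lmf1* in epithelial (-0.78) and *Lpl* in immune cells (1.54) among them: the 4 members called between adventitial and alveolar cells became 0 and the 1061 genes 291, and the 266 genes called between aerocytes and other endothelial cells became 41. With the DESeq2 Wald test, which also lost *Lpl* in immune cells (1.37), the 4 members became 1 and the 1061 genes 490. After thinning, which also lost *Lrpap1* in endothelial (-0.65) and *Lmf1* in epithelial cells (-1.26), 2 members were called between adventitial and alveolar cells, beside 789 of all genes. Between aerocytes and other endothelial cells 1 member was called (0 before), beside 224 of all genes. The 5443 genes called between epithelial and stromal cells became 3379. For aerocytes, 1 member was called after thinning, with no UMI of another class's markers and with no filter, in each case *Lpl* (-2.15, -1.88 and -1.63), and no filter gave 410 genes. Thinning leaves fewer UMIs and no filter more genes to test; the cause of the other changes was not tested.

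Left out in turn, the libraries gave *Lpl* between endothelial and stromal cells from -0.12 to 2.96. With 1 library no residual degrees of freedom remain, so these are values with no test, and 10 such values with no UMI in a group were not taken. Differences that were not called also changed sign. These were *Lmf1* in endothelial cells (0.10) at -0.02 with 5 marker UMIs, -0.14 with no filter and -0.20 with no replicate block, *Lpl* in epithelial cells at -0.15 with no scaling factor, and *Gpihbp1* in epithelial cells (-0.14) at 0.02 with no UMI of another class's markers, 0.38 with the DESeq2 Wald test and 0.21 without the top 5% of cells. *Lmf1* between adventitial and alveolar cells (-0.04) was 0.01 with DESeq2 size factors and 0.01 with the DESeq2 Wald test. Between aerocytes and other endothelial cells, after thinning *Lmf1* was 0.01, *Scarb1* -0.43 and *Lrpap1* -0.12; *Cd36* was 0.08 with no scaling factor; and *Scarb1* (0.14) was -0.07 with the DESeq2 Wald test, -0.12 with no replicate block and -0.13 with the aerocyte split without *Gpihbp1*. Of 640 values in all, 572 were as before in sign and side of the threshold, or for values with no test within the spread between libraries. A further 28 with no test counted as moved. They lay beyond that spread, had no spread to be set against (as with 0 UMIs in a group), or changed the sign of a difference not called. Of the rest, 17 lost the threshold, 5 gained it and 18 changed sign. Depth limits the endothelial groups of library 1, where 3 UMIs made 25.1 CPM.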
